A study of Mus musculus with 18 samples.

Results

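Open chromatin was examined at 10 genes of the TGF-β pathway in mouse retina: the ligands Tgfb1, Tgfb2 and Tgfb3, the receptors Tgfbr1 and Tgfbr2, the receptor-activated SMADs Smad2 and Smad3, their shared partner Smad4, and the inhibitory SMADs Smad6 and Smad7. Each gene was followed from 10 kb upstream of its annotated start to its end (mm10, GENCODE M21), and every ATAC-seq peak that touched this window was taken. ATAC-seq uses a transposase that inserts adapters into accessible DNA, and a peak is a stretch where such insertions pile up. The windows held 573 of the 911837 peaks of 18 libraries, which merged into 74 regions of 99792 in all. A region that was called in at least 2 libraries was kept as a consensus region, and 56 of the 73567 consensus regions lay at these genes. The 10 genes were among 21924 annotated protein-coding genes, of which 16698 had a peak in at least 2 libraries, and all 10 passed that filter.

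The libraries were made from whole retinas of wild-type mice (C57BL/6J in the study's methods) in 6 groups of 3. At 3 months of age (3mo) and at 18 months of age (18mo) there were retinas from eyes kept at 30 mmHg for 1 hour, a raised intraocular pressure (IOP), retinas of the opposite eye without pressure (contralateral), and retinas of untreated animals. Per the labels the IOP and contralateral retinas were taken on day 2 after the pressure, while the study's text gives a later day. The labels also describe dasatinib or vehicle injection in the text that all samples share, and they assign no library to either. Each library came from 1 eye, which animals gave which libraries is not labelled, and p-values measure the spread between these libraries.

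TGF-β ligands are secreted in a latent form and, once released, bind the type II receptor Tgfbr2, which then phosphorylates the type I receptor Tgfbr1. The activated Tgfbr1 phosphorylates Smad2 and Smad3, which join Smad4 and enter the nucleus to regulate transcription, whereas Smad6 and Smad7 hold the cascade back and are themselves common targets of it. In the eye TGF-β2 is the main isoform and is known for matrix deposition in the trabecular meshwork and optic nerve head in glaucoma, and TGF-β signalling in the retina is known to act on Müller glia, microglia and neurons.

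The lists held 36011 to 66160 peaks per library, and between 20 and 47 of these lay at the 10 genes. The number of peaks at the genes averaged 33.3 ± 11.8 in 3mo untreated, 30.7 ± 9.29 in 3mo contralateral, 30.7 ± 3.21 in 3mo IOP retinas, and at 18mo it was 32.0 ± 2.0 in untreated, 35.7 ± 4.93 in contralateral and 28.7 ± 8.50 in IOP retinas (SD, n = 3 each). The highest count was in 3mo untreated replicate 6 and the lowest in 18mo IOP replicate 3, the library with the shortest list. Peaks of the untreated libraries were narrower, with a median width of 161 to 192 bp against 264 to 395 bp in the other 12 libraries, so that the untreated and contralateral controls differed in peak shape as well as in treatment of the fellow eye and these cannot be told apart. Retinal identity was checked at 17 marker promoters, of which 11 (among them Crx, Pax6 and Glul) were called in all 18 libraries and 1 (Slc17a6) in none. The rest were called in some libraries: the bipolar marker Grm6 in 2, the Müller glia markers Rlbp1 in 8 and Slc1a3 in 11, Opn1sw in 13 and Rbpms in 14. The 14 markers of pigment epithelium, lens, cornea, blood, endothelium and microglia and the 3 of other tissues had no promoter call in any library. In whole retina, fewer cells of a type and less accessible DNA per cell cannot be told apart, and a region that was not called may be open below the threshold.

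Most regions at these genes lay in introns and were called in some libraries only, while most promoter regions were called in all. Of the 74 regions 51 (68.9%) had their summit in an intron of the member, 10 in a promoter (1 kb upstream to 100 bp downstream of an annotated start), 3 in a coding exon, 1 in an untranslated exon, and the others upstream of the gene or at neighbouring genes. Called in all 18 libraries were 7 of the 10 promoter regions and 1 of the 51 intronic ones. Among consensus regions 12 of 56 (21.4%) were called in every library, against 33.6% of all consensus regions, and 30 of 56 (53.6%) were called in at most 9 libraries, against 43.2% of all. No test was made of these shares. The 12 regions called in every library held 239 of the 573 peaks (41.7%), and 18 regions were called in a single library.

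**Figure D1:**
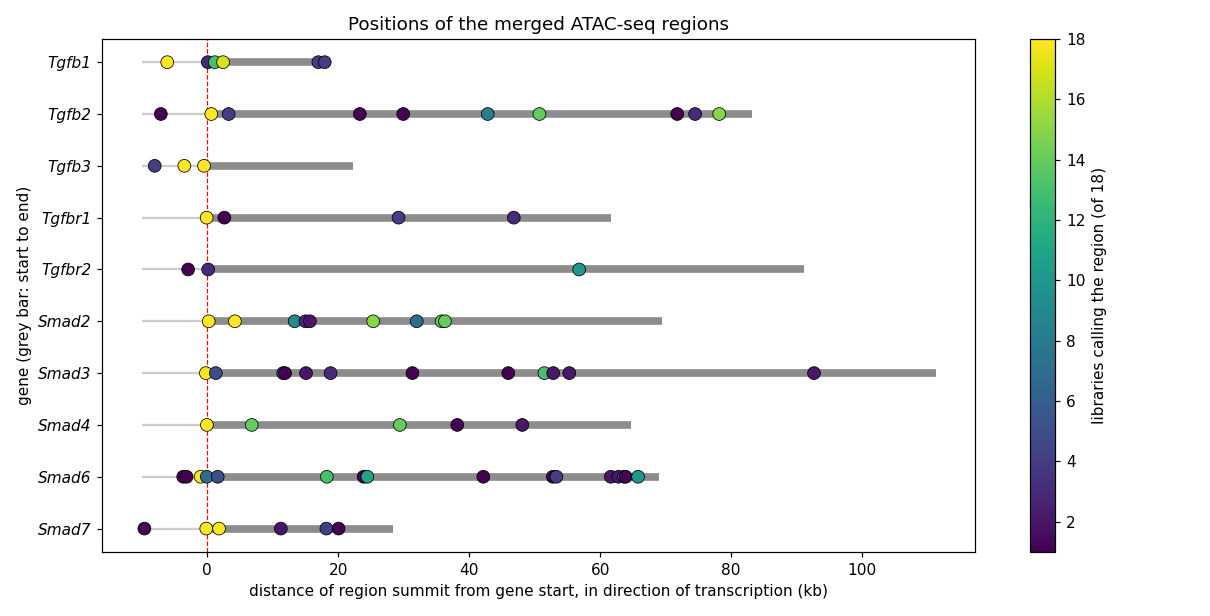
Position of each of the 74 merged regions at the 10 genes, as the distance of its summit from the annotated gene start in kb along the direction of transcription. Colour gives the number of libraries, of 18, that called the region, and the grey bar spans the gene. Regions called in all 18 libraries sit near the starts of 8 genes, Tgfb1 has one only 6.125 kb upstream and Tgfbr2 has none, and all but 1 of the intronic regions were called in fewer.

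The starts of the 2 receptor genes, whose products act as a pair, were called in every library (Tgfbr1) and in few (Tgfbr2), and their upstream sequence is shown for that reason. The 250 bases before the outermost annotated start are given on the gene's strand from the RefSeq genome (GRCm38.p6, the same chromosomes as mm10), with CG dinucleotides in capitals. The library counts are those of the merged region at each start, not of the printed bases. At Tgfbr1 that region (chr4:47352494-47353976) spans the printed bases. At Tgfbr2 it (chr9:116175124-116175356) lies inside the gene and does not overlap them.
Tgfbr1, called in 18 of 18 libraries, chr4:47352972-47353221, plus strand: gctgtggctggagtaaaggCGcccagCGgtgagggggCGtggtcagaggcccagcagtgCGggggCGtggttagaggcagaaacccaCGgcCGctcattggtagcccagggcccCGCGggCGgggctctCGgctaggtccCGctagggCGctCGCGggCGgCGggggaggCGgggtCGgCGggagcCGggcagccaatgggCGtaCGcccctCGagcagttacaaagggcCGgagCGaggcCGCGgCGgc
Tgfbr2, called in 3 of 18 libraries, chr9:116175361-116175610, minus strand: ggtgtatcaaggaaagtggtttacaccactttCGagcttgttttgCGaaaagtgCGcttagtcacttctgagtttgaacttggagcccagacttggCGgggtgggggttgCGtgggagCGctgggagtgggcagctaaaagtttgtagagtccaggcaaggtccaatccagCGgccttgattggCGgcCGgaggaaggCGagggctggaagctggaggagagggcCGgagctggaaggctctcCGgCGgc

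The stretch before Tgfbr1 held 29 CG dinucleotides at 74.8% G and C, and that before Tgfbr2 held 13 at 58.8%. In windows from 250 bases before to 50 bases after the start, the median was 20 CG dinucleotides over 11334 protein-coding genes with a promoter called in every library, 3 over 7841 genes with none called, and 11 over all 21904 genes read. In the same windows the members ranged from 9 in Tgfb3 and 10 in Tgfb2 to 46 in Smad2. Tgfbr1 had 34 and Tgfbr2 had 16, above the median of all genes, and 59.5% of genes had fewer than Tgfbr2. The members did not follow the order of the medians throughout: Tgfb1, called at the promoter in 2 libraries, had 30 CG dinucleotides, and Tgfb3, called in all 18, had 9.

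The following intronic regions are shown next, those at Tgfb2 and Tgfbr1 because all libraries of one group and none of another called them, and that at Tgfbr2 because it was called most often at a gene with no constant region. The SMAD box, CAGAC or on the other strand GTCTG, is in capitals. Each line gives 201 bases around the median summit on the gene's strand, read from GRCm38.p6.
Tgfb2 intron, 50.7 kb after the start, chr1:186655164-186655364, minus strand: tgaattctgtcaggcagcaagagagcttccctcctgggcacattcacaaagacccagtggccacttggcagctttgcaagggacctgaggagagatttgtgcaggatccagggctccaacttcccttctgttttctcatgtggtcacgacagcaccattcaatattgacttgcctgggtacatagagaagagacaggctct
Tgfbr1 intron, 29.2 kb after the start, chr4:47382327-47382527, plus strand: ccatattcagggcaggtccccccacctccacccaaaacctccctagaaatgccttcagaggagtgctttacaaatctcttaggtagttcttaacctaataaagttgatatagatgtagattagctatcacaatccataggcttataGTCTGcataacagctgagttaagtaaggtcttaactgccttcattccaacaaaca
Tgfbr2 intron, 56.8 kb after the start, chr9:116118466-116118666, minus strand: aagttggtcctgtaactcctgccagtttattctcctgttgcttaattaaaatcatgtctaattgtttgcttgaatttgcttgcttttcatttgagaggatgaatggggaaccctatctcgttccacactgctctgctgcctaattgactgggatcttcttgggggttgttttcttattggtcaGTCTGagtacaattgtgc

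The Tgfbr1 and Tgfbr2 introns held 1 SMAD box each and the Tgfb2 intron none in this window. Over the 56 member regions 17 (30.4%) held a SMAD box within 201 bp, against 40.1% of the 73449 consensus regions read. The GC-rich SMAD element GGCGCC was found in 8 member regions (14.3%) against 7.38% of all, the TAATCC motif of Crx and Otx2 in 6 (10.7%) against 15.4%, the TGANTCA motif of AP-1 in 4 (7.14%) against 6.62%, and the TTCNNNGAA motif of STAT factors in 3 (5.36%) against 4.42%. Both strands were searched and no searched motif contains another. The member windows were also richer in G and C, with a median of 56.7% against 52.7%. Among regions called in fewer than 18 libraries, 17 of 44 member regions (38.6%) held a SMAD box, against 41.7% of 48720. For GGCGCC it was 2 of these 44 (4.55%) against 4.38%. These matches are a description of letters, not of bound sites.

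**Figure D2:**
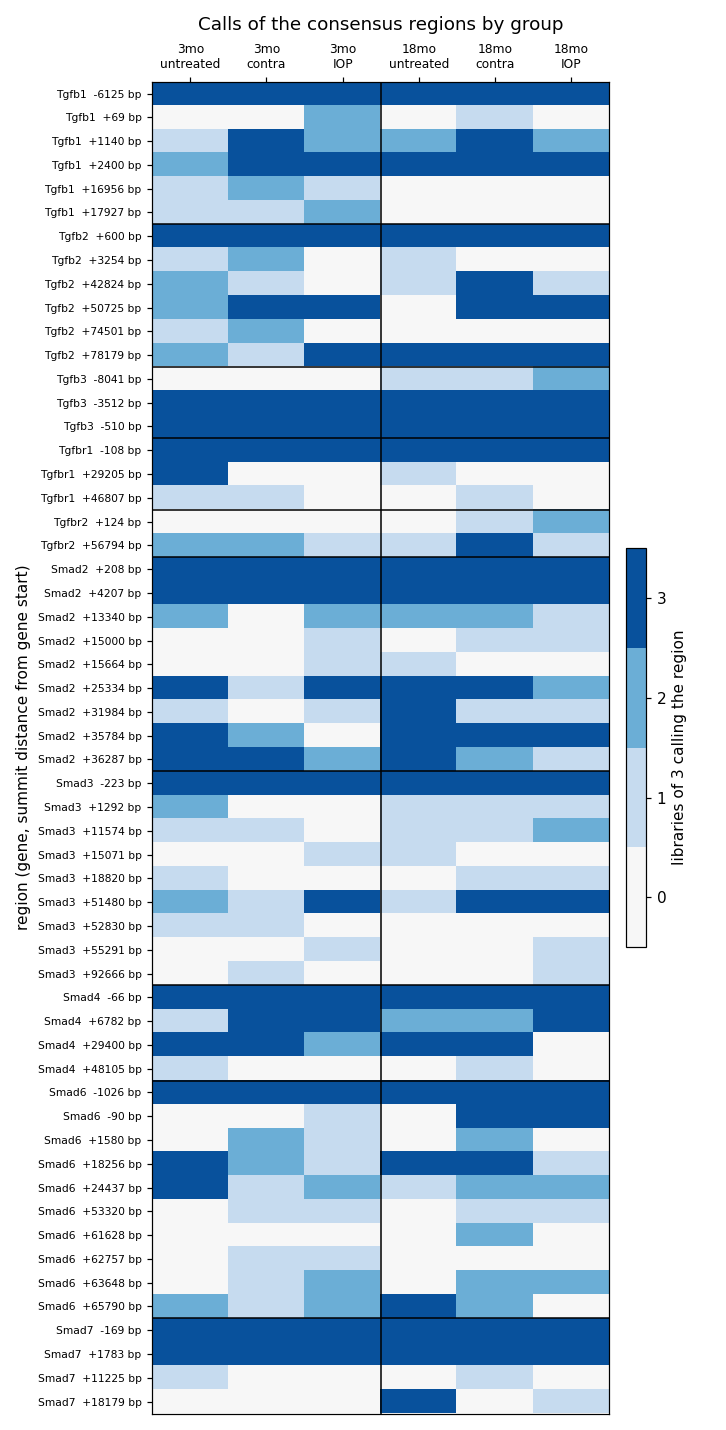
Calls of the 56 consensus regions in the 6 groups, 1 row per region named by gene and summit distance from the gene start in bp, with colour for the number of libraries of 3 that called it. The 12 fully dark rows are the regions called in every library, and the intronic rows vary within groups as well as between them.

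The 3 ligand genes differed in where they were open. At Tgfb1 (chr7:25687002-25705077, plus strand), which encodes the most widely expressed TGF-β, the region at the start (chr7:25686817-25687409, summit 69 bp after the start) was called in 2 of 3 3mo IOP libraries, in 1 18mo contralateral library and in no other, and its peaks stood at the 8.05th to 23.8th percentile of their lists by −log10 q, the significance the peak caller gave. Farther in, a region over a coding exon 1.14 kb after the start was called in 13 libraries and an intronic region 2.4 kb after the start in 17, all but 1 3mo untreated library. The constant region of the window, 6.125 kb upstream, was the promoter of the neighbouring gene B9d2. The weak regions at the 3′ end of the gene, 16.956 and 17.927 kb after the start, were each called in 4 libraries of 3mo and in none of 18mo, spread over the 3 kinds of retina.

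The number of Tgfb1 peaks was 3, 1 and 4 in 3mo untreated, 4, 6 and 3 in 3mo contralateral, and 5, 3 and 5 in 3mo IOP retinas. At 18mo it was 4, 3 and 4 in untreated, 4, 3 and 5 in contralateral and 3, 3 and 2 in IOP retinas. The groups overlapped, and the 18mo IOP libraries held no more than 3.

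Tgfb2 (chr1:186622792-186705989, minus strand), the main TGF-β isoform of the eye, had a merged region over its start (chr1:186705132-186706218) that was called in every library. Its median summit lay 600 bp into the first, untranslated exon, where an antisense transcript (Gm29491) also starts. Within its list this region stood at the 24.6th to 69.4th percentile. Its peaks did not all reach the start: 6 libraries had a peak that touched the promoter window of the outermost start. The intronic region 50.7 kb after the start was called in 14 libraries: 2 of 3 in 3mo untreated, all 3 in 3mo contralateral, 3mo IOP, 18mo contralateral and 18mo IOP, and none of 3 in 18mo untreated. Among the top 36011 peaks of every library it was called in 0, 2 and 1 of 3 in 3mo untreated, contralateral and IOP. In the same groups at 18mo it was then called in 0, 3 and 2 of 3. Another intronic region, 78.2 kb after the start, was called in 15 libraries, including all 9 of 18mo. Among the top 36011 peaks it was called in 2, 1 and 3 of 3 in 3mo untreated, contralateral and IOP. In 18mo untreated, contralateral and IOP it was then called in 0, 3 and 3 of 3. The gene had 1 to 8 peaks per library, and 3mo untreated alone spanned that whole range (1, 5 and 8).

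Tgfb3 (chr12:86056745-86079041, minus strand), which acts in palate and lung development and is also made in the retina, was open at its promoter in every library (chr12:86078515-86079816, percentile 71.1 to 87.5) and had no region inside the gene beyond it. The other constant region of its window, 3.512 kb upstream, was the promoter of Ift43. Tgfb3 was the only member with an unadjusted p under 0.05 for peak number between the kinds of control. It had 4, 4 and 4 peaks in 3mo untreated and 5, 3 and 4 in 18mo untreated retinas, against 2, 2 and 2 in 3mo contralateral and 2, 2 and 3 in 18mo contralateral ones. The mean was 4.0 ± 0.632 in untreated and 2.17 ± 0.408 in contralateral retinas (SD, n = 6 each; difference 1.83, exact permutation test, two-sided, p = 0.00433, Benjamini-Hochberg adjusted over all genes 0.117). With equal list lengths (the top 36011 peaks of every library) the difference was the same and the adjusted p was 0.0302 by the same exact permutation test. The surplus lay within the promoter region, which was listed as 2.83 peaks on average in untreated and as 1 in every contralateral and IOP library. The bases covered in that region went the other way, 954 bp in untreated and 1254 bp in contralateral libraries.

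The receptor genes had the fewest peaks for their length. Tgfbr1 (chr4:47353222-47414931, plus strand), the type I receptor kinase, was open at its promoter in all 18 libraries (chr4:47352494-47353976), at the 93.7th to 98.0th percentile of each list, with the highest median (95.5) of the 12 member regions called in every library. Its 3 remaining regions were intronic and were called in 1, 4 and 3 libraries. The intronic region 29.2 kb after the start was called in 3 of 3 3mo untreated libraries, in 1 18mo untreated library and in none of the 12 contralateral and IOP libraries. Its peaks were weak, with a mean percentile of 4.82 in the 3mo untreated lists, and with equal list lengths it was called in no library. The Tgfbr1 window held 1 to 4 peaks, with 2, 2 and 4 in 3mo untreated retinas and 1 or 2 everywhere else.

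Tgfbr2 (chr9:116084293-116175360, minus strand), the type II receptor that binds the ligand, was the only member with no region called in every library. Its promoter region (chr9:116175124-116175356) was called in 3 libraries, 1 18mo contralateral and 2 18mo IOP, and in none of the 9 libraries of 3mo or the 3 of 18mo untreated retinas. The intronic region 56.8 kb after the start was called in 10 libraries, namely 2, 2 and 1 of 3 in 3mo untreated, contralateral and IOP and 1, 3 and 1 of 3 in the same groups at 18mo. The window of 101 kb held 0 to 2 peaks per library, or 0.077 per 10 kb on average, against 1.29 per 10 kb at Tgfb1. Counting any peak that touched the promoter window of any annotated start, 7 of the 10 members had a promoter called in all 18 libraries, against 51.7% of protein-coding genes. The others were Tgfb1 (2 libraries), Tgfb2 (14) and Tgfbr2 (3). Smad6 is among those called in all 18 although its region next to the start was called in 7. In its remaining libraries the promoter window was touched by a region with its summit 1026 bp before the start.

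Smad2, Smad3 and Smad4, which carry the signal to the nucleus, were each open at the promoter in all 18 libraries. The Smad2 promoter (chr18:76240853-76242397) stood at the 84.4th to 93.2nd percentile, the Smad4 promoter (chr18:73703121-73704327) at the 85.1st to 95.6th and the Smad3 promoter (chr9:63757652-63758546) at the 54.0th to 77.5th. Smad2 was also the only member with an intronic region called in every library, 4.207 kb after the start.

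Smad2 (chr18:76241580-76310963, plus strand) had the most peaks of the SMADs that carry the signal. It had 6, 5 and 7 in 3mo untreated, 3, 5 and 4 in 3mo contralateral, and 6, 5 and 5 in 3mo IOP retinas. At 18mo it had 6, 8 and 7 in untreated, 7, 6 and 5 in contralateral and 6, 5 and 4 in IOP retinas. Control retinas averaged 5.0 ± 1.41 at 3mo and 6.5 ± 1.05 at 18mo (n = 6 each; exact permutation test, two-sided, p = 0.106), and the groups overlapped. Of its intronic regions, the region 35.8 kb after the start was called in 3 of 3 3mo untreated, 2 of 3 3mo contralateral and 0 of 3 3mo IOP libraries, and in all 9 of 18mo. The region 36.3 kb after the start, its close neighbour, was called in 14 libraries as well, but in 2 of 3 3mo IOP and 1 of 3 18mo IOP libraries. With equal list lengths the region at 35.8 kb was called in 2, 0 and 0 of 3 in 3mo untreated, contralateral and IOP. It was then called in 3, 1 and 1 of 3 in the same groups at 18mo. For the region at 36.3 kb these calls were 3, 2 and 2 at 3mo and 3, 0 and 0 at 18mo.

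Smad4 (chr18:73639009-73703780, minus strand) held the only member region that was exclusive to a side of the pressure comparison. The intronic region 29.4 kb after the start (chr18:73674141-73674601) was called in 3 of 3 18mo contralateral and 0 of 3 18mo IOP libraries. It was called in 3 of 3 libraries of 3mo untreated, 3mo contralateral and 18mo untreated and in 2 of 3 3mo IOP. In the 18mo contralateral libraries its −log10 q was 6.00, 2.93 and 2.65, at the 27.0th, 5.35th and 2.81st percentile of the lists, low in each list and lowest in replicates 2 and 3. When every library was limited to its top 36011 peaks, the region was called in 0 of 3 18mo contralateral libraries as well. The mean number of Smad4 peaks was 3.0 in 18mo contralateral (4, 2 and 3) and 2.0 in 18mo IOP retinas (2, 2 and 2), which overlapped.

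Smad3 (chr9:63646767-63757994, minus strand), the longest of the genes, had 12 regions of which 11 were intronic, and 10 of these 11 were called in at most 6 libraries. The exception, 51.5 kb after the start, was called in 13 libraries, with 2, 1 and 3 of 3 in 3mo untreated, contralateral and IOP and 1, 3 and 3 of 3 in the same groups at 18mo. Its peak number reached 6 in 3mo untreated replicate 6 and 7 in 18mo IOP replicate 2, against 2 to 4 in the other libraries.

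Smad6 (chr9:63953076-64022059, minus strand), an inhibitory SMAD better known for restraining BMP signals, had the most regions (16, of which 10 were consensus regions) and the only member region with an unadjusted p under 0.05 by age. It was open in 2 places near its start, and the sequence of both is printed on the gene's strand (GRCm38.p6, CG dinucleotides in capitals). The second line stops at the base before the annotated start.
Smad6, summit 1026 bp before the start, called in 18 of 18 libraries, chr9:64022985-64023185, minus strand: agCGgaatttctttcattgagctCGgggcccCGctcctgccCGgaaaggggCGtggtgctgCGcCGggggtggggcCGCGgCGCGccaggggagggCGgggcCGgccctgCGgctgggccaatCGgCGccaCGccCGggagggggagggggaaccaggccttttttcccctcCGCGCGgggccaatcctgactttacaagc
Smad6, summit 90 bp before the start, called in 7 of 18 libraries, chr9:64022060-64022249, minus strand: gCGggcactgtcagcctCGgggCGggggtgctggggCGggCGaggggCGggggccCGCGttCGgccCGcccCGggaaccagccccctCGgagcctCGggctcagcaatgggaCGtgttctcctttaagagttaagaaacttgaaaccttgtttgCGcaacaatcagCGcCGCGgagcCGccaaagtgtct

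Both stretches were rich in CG dinucleotides, 21 in 201 bases and 19 in 190 bases. The region next to the start was called in 3 of 3 18mo contralateral, 3 of 3 18mo IOP and 1 of 3 3mo IOP libraries, and in none of the 3mo contralateral, 3mo untreated and 18mo untreated ones. Its −log10 q ran from 3.26 to 8.08 in the 7 libraries. With equal list lengths it was called in 3 of 3 18mo IOP and 1 of 3 3mo IOP libraries and in no contralateral library, so that its calls in 18mo contralateral retinas depended on the longer lists of that group.

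The region 1026 bp before the start was called everywhere, and its rank was compared instead. The peak rank is the percentile of a region's −log10 q among the 24751 regions called in all 18 libraries, taken within each library. For this region it was 39.9, 44.7 and 46.0 in 3mo untreated and 22.3, 34.6 and 35.4 in 18mo untreated retinas. It was 29.7, 31.0 and 24.2 in 3mo contralateral and 16.9, 13.3 and 8.3 in 18mo contralateral retinas. It was 29.0, 33.8 and 46.1 in 3mo IOP and 17.8, 12.4 and 19.5 in 18mo IOP retinas. Within each of these 3 kinds of retina, every 18mo library ranked below every 3mo library. How many of all ranked regions show such an order is not given here. Over the 6 controls of each age the rank averaged 35.9 ± 8.89 at 3mo and 21.8 ± 11.2 at 18mo (SD, n = 6), a difference of -14.1 percentile points (exact permutation test, two-sided, p = 0.0411, adjusted over all regions 0.589).

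Untreated and contralateral controls had different mean ranks here (given with the comparison of controls), and with the labels permuted within kind the age difference had p = 0.005, the smallest that 400 arrangements can give, and adjusted p = 0.202 by the same exact permutation test. In that setting 2746 of 24750 regions had an unadjusted p under 0.05. Ranked by the fold at the summit in place of q, the age difference was -8.79 percentile points (exact permutation p = 0.199), and in the whole list of each library it was -5.95 (exact permutation p = 0.251). The difference did not pass the adjusted threshold under any of these settings, and across all regions none did.

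Smad6 was also the member whose peak number separated the groups at 18mo. The window held 7, 6 and 9 peaks in 18mo contralateral, 5, 5 and 2 in 18mo IOP and 3, 4 and 3 in 18mo untreated retinas, so that the contralateral libraries lay above both others without overlap. At 3mo the counts were 4, 8 and 2 in contralateral, 5, 5 and 5 in IOP and 4, 3 and 5 in untreated retinas, which overlapped. The 18mo contralateral lists were also longer, 51166 to 60755 peaks against 36011 to 48723 in 18mo IOP. With equal list lengths the counts were 2, 3 and 2 in 18mo contralateral, 2, 2 and 2 in 18mo IOP and 3, 2 and 3 in 18mo untreated retinas. The contralateral counts then overlapped with both others.

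Smad7 (chr18:75367529-75395935, plus strand), the inhibitory SMAD that directs the receptors to degradation, had its promoter (chr18:75366378-75367909, percentile 73.6 to 86.2) and an alternative promoter 1.783 kb after the outermost start (percentile 30.2 to 71.7) called in every library. Of its other regions, the intronic region 18.2 kb after the start (chr18:75385605-75385818) was called in 3 of 3 18mo untreated libraries, in 1 18mo IOP library and in no other. Its peaks were weak, at −log10 q 3.32, 4.09 and 4.86 in the untreated libraries, and with equal list lengths it was called in none. The window held 2 to 4 peaks in every library.

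**Figure D3:**
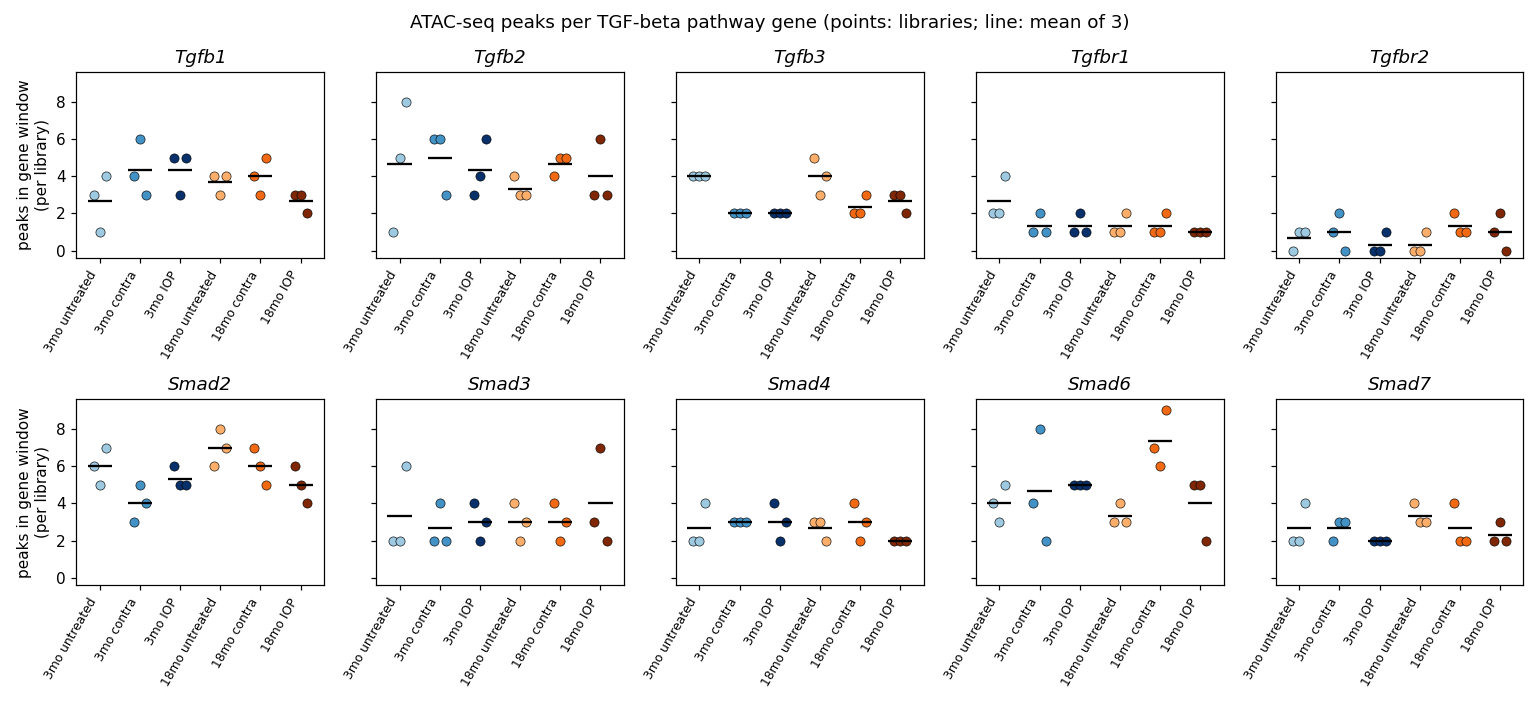
Number of peaks in the window of each of the 10 genes (y axis, peaks per library) by group, with 1 point per library and a line at the mean of 3. Tgfb3 lies at 3 to 5 in untreated libraries and at 2 or 3 in the others, and Smad6 in 18mo contralateral libraries (6 to 9) lies above the other 18mo groups. Counts are from the full lists, and with equal list lengths the 18mo contralateral counts of Smad6 overlapped with the other groups.

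The first comparison of the design asked whether control retinas of 18mo differed from those of 3mo. At the members none of the measures passed the adjusted threshold. Of the 56 consensus regions, 5 were called in a number of libraries that allows p under 0.05, and 0 of these had an unadjusted p under 0.05 (two-sided exact permutation test, 6 against 6), where 3.58% of all 9868 such regions did. For peaks per gene 0 of 10 members had an unadjusted p under 0.05, against 3.47% of 8509 genes. The mean number of peaks in controls went from 4.83 to 4.0 at Tgfb2, from 5.0 to 6.5 at Smad2 and from 4.33 to 5.33 at Smad6, and was equal at Smad3 (3.0), Smad4 (2.83) and Tgfbr2 (0.833). For peak rank 1 of 12 member regions, the Smad6 region given above, had an unadjusted p under 0.05, against 8.13% of 24750 regions. Over all regions and genes no age difference passed the adjusted threshold either, by any of the 3 measures.

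Within a kind of control, regions called in 3 of 3 libraries of one age and 0 of 3 of the other were counted, since an exact permutation test of 3 against 3 cannot go below p = 0.1. In untreated retinas 1 of 56 member regions was exclusive to an age, the Smad7 intron at 18mo, where 1.67% of all consensus regions were. In contralateral retinas it was 1 of 56 as well, the Smad6 region next to the start at 18mo, where 1.27% were. No member's peak number was without overlap between ages in untreated (3.79% of genes were) or in contralateral retinas (2.07% were).

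The second comparison asked what pressure changed relative to the contralateral eye. Labels were permuted within age, which gives 400 arrangements and a smallest p of 0.005. Among region calls 0 of 7 member regions whose calls allow p under 0.05 had an unadjusted p under 0.05, where 5.04% of 5572 such regions did. Among peaks per gene it was 0 of 6 members, where 3.53% of 5580 genes did. The median difference over the members was -0.5 peaks against -0.167 over all genes, where the mean was -0.3. The gap between the medians was not tested, and the highest difference at a member was 0.667 at Smad3. Smad6 had the lowest mean difference, -1.5 peaks over both ages (p = 0.305, exact permutation test), with 0.333 at 3mo and -3.33 at 18mo. It was -0.9 without 18mo contralateral replicate 3, -2.3 without 3mo contralateral replicate 3 and 0.167 with equal list lengths. The difference of the IOP effect between the ages was tested for each member by permuting treatment labels within age, and none of the 7 region calls, 6 peak numbers and 12 ranks that could be tested at the members had an unadjusted p under 0.05. Over all features 1.35% of 5572 regions, 0.914% of 5580 genes and 2.98% of 24750 ranks did.

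At 3mo no member region was exclusive to IOP or contralateral retinas, where 0.458% of all consensus regions were, and no member's peak number was without overlap, where 0.629% of genes were. At 18mo 1 of 56 member regions, the Smad4 intron, was exclusive, where 2.47% of all were, and 1 of 10 members, Smad6, was without overlap in peak number, where 5.64% of genes were. Over all regions at 18mo 1642 were exclusive to contralateral and 176 to IOP retinas. With equal list lengths these became 396 and 461, and the member regions among them were the Tgfbr2 intron 56.8 kb after the start (3 of 3 contralateral, 0 of 3 IOP), and in the other direction the Smad4 intron 6.782 kb after the start and the Smad6 region next to the start (0 of 3 contralateral, 3 of 3 IOP each). Which member regions were exclusive at 18mo thus depended on list length. Whether their number at equal list lengths differs from the share over all regions was not tested.

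For peak rank 1 of 12 member regions had an unadjusted p under 0.05 by IOP, against 8.14% of 24750 regions. This was the Smad2 promoter, at 84.4, 78.2 and 80.2 in 3mo contralateral and 80.9, 81.8 and 87.8 in 3mo IOP retinas, and at 74.3, 74.8 and 76.9 in 18mo contralateral and 77.5, 82.2 and 84.7 in 18mo IOP retinas. The 18mo groups did not overlap and the 3mo groups did. The mean difference was 4.31 percentile points (exact permutation test, p = 0.045, adjusted 0.553). Ranked in the whole list of each library, it was 0.891 points (exact permutation p = 0.325). The Tgfb2 start region, at 15.2, 10.8 and 30.9 in 18mo contralateral and 36.9, 26.9 and 28.7 in 18mo IOP retinas, had a mean difference of 10.3 points over both ages (exact permutation p = 0.09, adjusted 0.645), with overlap at both ages.

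**Figure D4:**
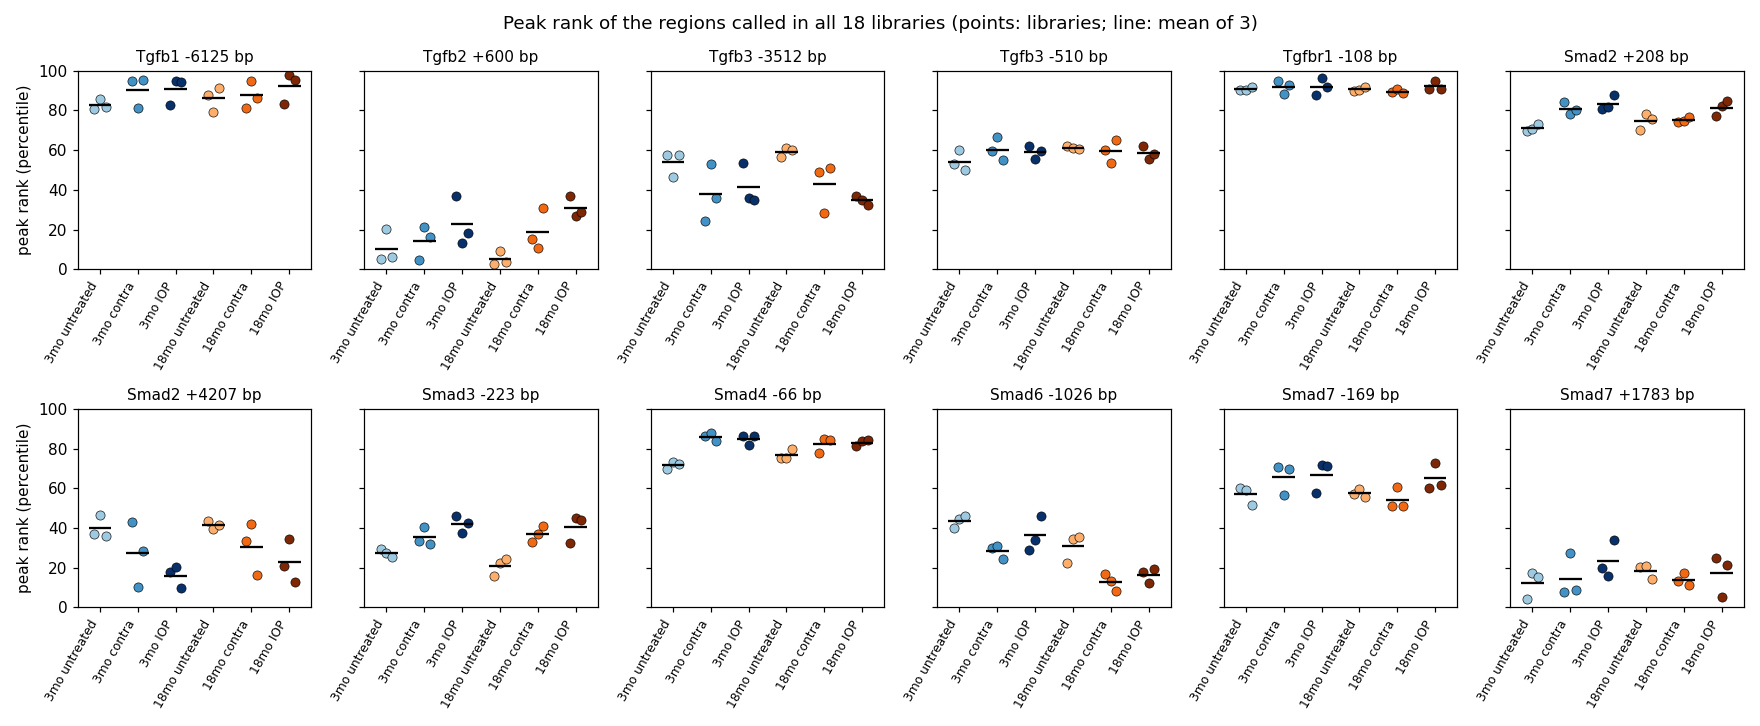
Peak rank (percentile among the regions called in all 18 libraries) of the 12 member regions called in every library, by group, with 1 point per library and a line at the mean of 3. The Smad6 region 1026 bp before the start lies lower at 18mo than at 3mo within each kind of retina, and the Smad3 and Smad4 promoters lie lower in untreated than in contralateral libraries.

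The third comparison set untreated against contralateral controls, since both stand as controls in the comparison of ages made here. Here ranks differed at many regions. Of 12 member regions 5 had an unadjusted p under 0.05, against 38.4% of 24750 regions, and 3 passed the adjusted threshold, against 22.9% of them, a share near the background. The Smad3 promoter ranked at 29.2, 27.5 and 25.7 in 3mo and 15.9, 22.6 and 24.6 in 18mo untreated retinas, and at 33.5, 40.6, 32.0 and 32.8, 37.1, 41.1 in the contralateral ones, with no overlap and a mean difference of -12.0 (exact permutation test, p = 0.00216, the smallest 924 arrangements give, adjusted 0.0186). Ranked by fold this difference was -3.57 (exact permutation p = 0.188). The Smad4 promoter averaged 74.4 ± 3.29 in untreated and 84.3 ± 3.53 in contralateral retinas (n = 6 each, exact permutation test, adjusted p = 0.0274), and the Ift43 promoter upstream of Tgfb3 56.5 ± 5.23 and 40.2 ± 12.3 (n = 6 each, exact permutation test, adjusted p = 0.0472, and 0.0571 with labels permuted within age). The Smad6 region 1026 bp before the start averaged 37.2 and 20.6 (exact permutation test, adjusted p = 0.0531, and 0.0309 within age), and the Smad2 promoter 73.0 and 78.2 (exact permutation test, adjusted p = 0.0971). Ranked in the whole list of each library, none of these 5 passed (exact permutation test, adjusted p 0.0515 at Smad4, 0.25 at Smad3 and 0.264 at the Ift43 promoter). Peak width moved with the same split, and its part in these differences was not tested.

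Among region calls 0 of 5 member regions had an unadjusted p under 0.05 by kind of control, where 11.4% of 9868 regions did, and for peaks per gene 1 of 10 members did, Tgfb3, where 18.1% of genes did. Regions exclusive to a kind were 1 of 56 at 3mo (the Tgfbr1 intron, in untreated retinas), where 1.74% of all were, and 3 of 56 at 18mo (the Smad7 intron in untreated, the Tgfb2 intron and the Smad6 region next to the start in contralateral retinas), where 4.35% were. Peak numbers were without overlap for 1 of 10 members at 3mo (Tgfb3, higher in untreated), where 7.47% of genes were, and for 1 of 10 at 18mo (Smad6, higher in contralateral), where 10.6% were. With equal list lengths the Smad6 counts of untreated and contralateral retinas overlapped at 18mo.

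A list of 49 other genes of the pathway was read in the same way, and all 49 were found. Their promoters were called in all 18 libraries in 22 of 49 (44.9%), against 51.7% of all protein-coding genes. The share was highest among the other SMADs and anchors (Smad1, Smad5, Smad9 and Zfyve9, 4 of 4), co-receptors and other receptors (7 of 10) and antagonists and co-repressors (7 of 11, among them Ski, Skil, Smurf1 and Smurf2, which restrain SMAD activity). It was 2 of 10 for latent ligand handling, 2 of 8 for known targets and 0 of 6 for BMP and activin ligands. No promoter call was found in any library for 7 of them. These were Eng and Acvrl1, receptors best known from endothelium, Col1a1, a fibrillar collagen, and Ltbp3, Itgb6, Bmp4 and Id3. Elsewhere in their windows every library had peaks at Acvrl1 (3 to 6), Col1a1 (2 to 4), Id3 (2 to 3) and Ltbp3 (1 to 6). Eng, Itgb6 and Bmp4 had 0 in some libraries.

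By age 1 of the 38 listed genes that could be tested had an unadjusted p under 0.05 for peaks per gene, against 3.47% of all genes tested. This was Tgif2, a SMAD co-repressor, with 0, 0 and 0 peaks in 3mo untreated, 0, 1 and 1 in 3mo contralateral, 2, 3 and 1 in 18mo untreated and 3, 2 and 1 in 18mo contralateral retinas (mean difference 1.67, exact permutation p = 0.013, adjusted 1.0). By IOP it was 0 of the 25 that could be tested, against 3.53% of all. By kind of control 7 of 38 had an unadjusted p under 0.05, 2 higher and 5 lower in untreated retinas, a share near the 18.1% of all genes, and none passed the adjusted threshold (smallest adjusted p 0.131, exact permutation test over all genes). The largest of these was Ltbp1, which tethers latent TGF-β to the matrix, with 0, 3, 3 and 1, 1, 1 peaks in untreated and 3, 5, 2 and 6, 6, 5 in contralateral retinas of 3mo and 18mo. The others were Thbs1, which activates latent TGF-β, at -1.0 peaks, Itgav, an integrin subunit that does the same, at 1.67, the target Id3 at -0.833, the ubiquitin ligase Smurf1 at -2.0 the ligand Bmp7 at -1.17 and Pmepa1, which dampens SMAD signalling, at 2.17. The median difference over the 49 genes was 0 peaks by age, -0.333 by IOP and -0.167 by kind of control, and over all genes 0, -0.167 and 0.167.

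The genes whose peak numbers followed those of the members with the most peaks were found by Pearson's r over the 18 libraries, among genes more than 1 Mb away. For Smad2 they were Plekhg2 (r = 0.917), Cds2 (0.891) and Utp11 (0.881), and for Smad6 they were Agt (0.933), Tspan2 (0.905) and Hivep3 (0.878). These are descriptions over 18 libraries that share list length, with which Smad2 and Smad6 themselves had r = 0.602 and 0.642. Over the 10 members the r with list length ran from 0.294 at Tgfb3 to 0.642 at Smad6.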

How the data were processed

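ATAC-seq was done on 18 mouse retinas. Per the labels and the study's methods, the authors called peaks with MACS2 in each library on mm10 (q-value 0.05), without pooling. The submitters' processing notes name STAR 2.7.8a, MACS2, HOMER, edgeR and bedtools 2.29.2 without their roles. How reads were filtered or shifted is not given in the sources used here, read totals were not used, and precision rests on 3 libraries per group. The deposited lists hold a score, the fold (the ratio of pileup to local background at the summit), and p-value and q-value on the −log10 scale for each peak. These were used only to rank or filter peaks within a list. The label text shared by all samples also describes chromatin immunoprecipitation, but nuclei were tagmented fresh according to the study's methods. Peak lists hold no read counts, so the study's count model could not be applied.

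Peaks that shared at least 1 bp were merged, and a region counted as called where a library had a peak in it. Region calls, peaks per gene and peak rank were tested across all consensus regions or genes with two-sided exact permutation tests (924 arrangements for 6 against 6, 400 for IOP within age), adjusted by Benjamini-Hochberg over the features whose smallest possible p is under 0.05 (Python 3.11.15, numpy 2.4.6, scipy 1.17.1). The test was checked on simulated data. The members and lists were chosen with earlier results of these data known. Named were all members, the region at each start, member regions with an unadjusted p under 0.05 or exclusive to a group of an IOP comparison, up to 6 genes of the pathway list per comparison by smallest p, and the 3 genes most like the 2 members with the most peaks. Pmepa1 and other regions with group patterns were chosen after their values were seen. Regions were placed with GENCODE M21 by their median summit. Alternatives were peaks with −log10 q of at least 2, the top 36011 peaks of every list, 50% of a region covered, all merged regions, a window from 2 kb upstream, bases covered, other ranks, no gene filter, labels permuted within kind of control, age or peak-width class, a replicate block, and each library left out.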

Additional observations from a re-analysis of the deposited data

How the results depend on the processing

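No age or IOP difference passed the adjusted threshold for region calls, peaks per gene or peak rank in the main setting or under any alternative, and the count was 0 without each library in turn. By kind of control the counts moved: from 0 to 367 regions and 385 genes with equal list lengths, to 6814 regions when 50% of a region had to be covered, and to 11605 genes by bases covered. The 5673 ranks called became 1405 when ranked in the whole list, and 4323 to 4900 without each library. By bases covered the direction turned at Tgfb3 (-338 bp), Tgfbr1 (-169 bp), Smad3 (-498 bp) and Smad7 (-374 bp), all fewer bases in untreated libraries, whose peaks are narrower. Exclusive regions by IOP numbered 337 at 3mo, 686 to 1481 without each library. At 18mo they numbered 1818, 2427 to 4079 without each library and 857 with equal list lengths. With a library left out, fewer libraries of its group had to agree, so that the counts without each library could not fall and do not measure stability. Leaving out a library left 1 to 3 member regions exclusive to contralateral retinas at 18mo. At 3mo it gave up to 3 exclusive to IOP and up to 1 exclusive to contralateral retinas. Without single libraries the Smad6 rank difference by age ran from -16.8 to -11.4 (p 0.0238 to 0.0823) and the Smad2 promoter rank by IOP from 3.24 to 5.56 (p 0.015 to 0.095, exact permutation tests). Same-numbered IOP and contralateral libraries did not deviate together in every pair (correlations of rank deviations -0.285, -0.314 and 0.184 at 3mo and 0.333, 0.25 and -0.108 at 18mo), and with the replicate block 0 regions, genes and ranks passed by age or IOP, and the Smad2 promoter rank by IOP had an unadjusted p of 0.0938 (exact permutation test). For single regions and genes 4166 values kept direction and side of the threshold over the alternatives, 39 newly passed an unadjusted p of 0.05, 30 no longer did and 4 turned. The number of libraries limits every comparison at a single age, and list length limits calls near the threshold.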
